A study of Homo sapiens with 13 samples.

Results

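Bidirectional-promoter lincRNAs are long intergenic RNAs that start close to, and on the other strand from, the start of a coding gene. In the deposited tables such a row carries the name of that gene (linc-SOCS3-BP lies beside SOCS3), and the members described here are the assembled rows with that ending and with 20 or more fragments in at least 2 of the 6 time-course libraries. Of 1010 such rows, 433 met the rule and 577 did not, out of 38369 rows in the table; 1 further row, beside KTN1, was left out by the rule. The fragment numbers that chose the members are described here without a test. Just inside the rule, linc-BBS12-BP and linc-CCDC48-BP each had 20 fragments as the second largest count over their 6 libraries, and just outside it linc-NFIL3-BP and linc-RNF141-BP each had 19. Of the members, 284 reached 20 fragments in all 6 libraries and 39 in only 2, and 0 reached it at 1 time alone.

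The libraries were made from polyA-selected RNA of MCF10A, an immortalised, non-tumorigenic line of human breast epithelium, although the labels give its cell type as breast cancer. MCF10A-Src is a derivative of that line that carries Src kinase fused to part of the oestrogen receptor, so that adding tamoxifen activates the kinase. It was sampled at 0 h (1 library), 4 h (2), 12 h (1) and 36 h (2) of tamoxifen, with no untreated library at the later times, so that time in culture and tamoxifen cannot be told apart. Parental MCF10A cells transduced with LINC00520, a lincRNA that the files' table lists as linc-TBPL2-2, were sampled 72 h after transduction (2 libraries) and set against untransduced cells (3 libraries), which the sample descriptions call mock-transduced. No library of another transduced RNA was analysed here, so an effect of LINC00520 and one of transduction cannot be told apart. All cells grew with equine serum, hydrocortisone, cholera toxin, EGF and insulin.

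Library depth was 12.6 to 52.3 M fragments in the time course, deepest at 0 h and shallowest in the second 36 h library, and 22.9 to 36.4 M in the parental cells. The LINC00520 row had 46.0 and 45.7 CPM (counts per 1 M fragments after edgeR's TMM scaling) in the LINC00520 libraries, against 0.137, 0.197 and 0.0871 CPM in the untransduced ones. The basal keratin KRT5 was at 1022 to 2776 FPKM (fragments per kilobase of transcript and 1 M fragments) in the time course, and COL1A2 and CDH5, which mark fibroblasts and endothelium, were listed at 0 in all 6 libraries. ESR1, part of which the Src fusion carries, stood at 623 to 1561 FPKM there, against 0.139 to 0.492 FPKM in the parental libraries. Of 5 immune markers, 2 were higher at 36 h than at 4 h with no overlap, CD68 (53.1 and 29.6 FPKM at 36 h against 6.65 and 6.05 FPKM at 4 h) and CD14 (12.9 and 15.5 against 8.24 and 7.22 FPKM), and the list summed to 66.0 and 45.2 against 14.9 and 13.3 FPKM. Of 5 fibroblast markers DCN (58.0 and 77.5 against 18.3 and 21.1 FPKM) and PDGFRB (0.534 and 0.727 against 0.521 and 0.481 FPKM) were higher, and the list summed to 59.0 and 78.4 against 19.2 and 21.8 FPKM. Of 7 basal markers 5 were lower, among them KRT17 (804 and 821 against 2328 and 2379 FPKM) and TP63 (8.95 and 9.27 against 28.8 and 25.7 FPKM), and the list summed to 2775 and 2678 against 6078 and 6185 FPKM. The part of these markers in the results was not tested. The 2 libraries of 4 h differed more than those of any other pair, with a median chi-square ratio of 11.8 to counting noise, against 3.92 at 36 h and 1.26 to 1.78 in the parental cells.

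Many mammalian promoters fire in both directions, most of them within CpG islands. The coding direction is spliced and stable, whereas the RNA made the other way is often cut short and degraded by the nuclear exosome, so that steady-state levels of divergent RNAs depend on turnover as well as on initiation. Members of this class can follow their coding neighbour or depart from it.

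A coding partner was found in the table for 425 of the 433 members, as 423 distinct rows. In 267 pairs the lincRNA and the coding gene shared 1 locus interval in the deposited table, and in 158 pairs they lay in neighbouring intervals with gaps of 1 to 496 bases (median 129.5). The interval of 335 members held at least 1 coding row and that of 98 held none. The strand setting of the counting is not given in the sources used here, so for members whose interval holds a coding row, fragments of the lincRNA and of the coding gene may not have been told apart. Gene intervals are hg19 coordinates from the files.

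The promoters below belong to partners of members that moved furthest with their partner, without it, or against it; they were chosen after the members' values were seen and among the genes with an entry. Each is the 250 bases before a start that RefSeq lists on GRCh38.p14, on the gene's own strand. SOCS3 has 2 listed starts and both are shown. Capitals mark matches, on either strand, to CCAAT, to the GC box GGGCGG, to the ETS-type word CCGGAAG or to the TATA word TATAAA.
SOCS3, first listed start, chr17:78360926-78361175, minus strand: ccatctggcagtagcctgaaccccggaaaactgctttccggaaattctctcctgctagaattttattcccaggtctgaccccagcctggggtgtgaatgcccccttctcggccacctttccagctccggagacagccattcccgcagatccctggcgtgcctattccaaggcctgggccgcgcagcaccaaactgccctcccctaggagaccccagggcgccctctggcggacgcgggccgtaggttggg
SOCS3, second listed start, chr17:78359668-78359917, minus strand: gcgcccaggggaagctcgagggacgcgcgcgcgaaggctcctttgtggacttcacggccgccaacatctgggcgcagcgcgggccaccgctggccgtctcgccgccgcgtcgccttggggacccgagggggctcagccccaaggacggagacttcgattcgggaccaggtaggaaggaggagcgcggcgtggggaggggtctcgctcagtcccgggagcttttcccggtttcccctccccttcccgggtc
KLF9, chr9:70414658-70414907, minus strand: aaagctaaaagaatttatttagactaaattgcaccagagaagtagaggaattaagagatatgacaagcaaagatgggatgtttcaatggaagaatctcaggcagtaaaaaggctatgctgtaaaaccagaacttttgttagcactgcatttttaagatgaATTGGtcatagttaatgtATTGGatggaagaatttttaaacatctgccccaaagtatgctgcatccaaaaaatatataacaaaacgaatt
KDM7A, chr7:140176984-140177233, minus strand: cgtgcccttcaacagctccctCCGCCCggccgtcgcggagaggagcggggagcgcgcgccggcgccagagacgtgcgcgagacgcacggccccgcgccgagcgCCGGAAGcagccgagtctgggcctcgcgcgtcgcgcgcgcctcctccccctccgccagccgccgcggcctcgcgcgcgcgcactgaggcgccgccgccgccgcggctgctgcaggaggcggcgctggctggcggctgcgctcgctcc
MOB3B, chr9:27529815-27530064, minus strand: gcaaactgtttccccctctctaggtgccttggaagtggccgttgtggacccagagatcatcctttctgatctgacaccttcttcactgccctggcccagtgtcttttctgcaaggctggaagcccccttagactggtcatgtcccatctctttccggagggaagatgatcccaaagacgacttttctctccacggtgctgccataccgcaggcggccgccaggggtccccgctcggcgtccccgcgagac
GOT1, chr10:99430625-99430874, minus strand: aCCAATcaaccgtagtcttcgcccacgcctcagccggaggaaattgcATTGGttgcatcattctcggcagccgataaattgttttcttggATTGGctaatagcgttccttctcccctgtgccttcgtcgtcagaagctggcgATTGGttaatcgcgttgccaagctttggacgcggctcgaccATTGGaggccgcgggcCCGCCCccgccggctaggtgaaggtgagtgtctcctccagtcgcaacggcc
RPLP0, chr12:120201112-120201361, minus strand: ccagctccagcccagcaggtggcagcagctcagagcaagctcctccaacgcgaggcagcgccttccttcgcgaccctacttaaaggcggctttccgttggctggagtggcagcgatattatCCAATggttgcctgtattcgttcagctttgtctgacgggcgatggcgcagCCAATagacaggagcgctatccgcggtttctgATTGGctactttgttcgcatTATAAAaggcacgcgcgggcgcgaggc

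The partners' promoters were rich in CpG. For 361 of 431 partner names with an entry, the 250 bases before the first listed start had a median GC content of 66.8% and a median CpG observed over expected of 0.842, against 62.4% and 0.737 for all 15842 coding genes in the RefSeq table. A GC box was present in 70.6% of partner promoters against 56.0% of all, and the ETS word in 16.9% against 11.8%. TATAAA was present in 3.88% against 9.23%. The 15842 genes were not limited to those expressed in these cells, whereas 399 of 423 partner rows had enough fragments to test at 36 h against 4 h. The part of expression in these differences was not tested. CCAAT occurred in 34.3% of partner promoters and in 34.5% of all, the STAT word TTCNNNGAA in 6.65% and 6.12%, the CRE TGACGTCA in 3.05% and 2.32%, the AP-1 word TGANTCA in 3.05% and 5.04%, and the E-box CACGTG in 5.54% and 7.84%. Among the 75 partner promoters with an entry whose lincRNA rose at 36 h against 4 h, the STAT word was in 7 (9.33%) and the GC box in 62.7%, and among the 31 whose lincRNA fell at 4 h against 0 h they were in 2 (6.45%) and in 67.7%; these 2 words were picked after the counts were seen. These 8 words were searched on both strands, and a match is a description of the letters only. The members' names rest on such neighbourhoods, and in the GENCODE annotation a lncRNA started on the other strand within 1000 bases upstream of 112 of 427 partner genes, which is 26.2%, against 996 of 19936 coding genes, which is 5.00%. Of the promoters printed, GOT1 held 5 CCAAT words and 1 GC box, RPLP0 held 3 CCAAT and 1 TATA word, KLF9 held 2 CCAAT, and KDM7A (the current name of JHDM1D) held 1 GC box and 1 ETS word. Neither SOCS3 window nor the MOB3B window held any of the 8. This covers only the 250 bases before each listed start, and words elsewhere near these genes are not counted here.

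The members were low in abundance. Their median level over the time course was 0.902 FPKM, against 14.2 FPKM for their partners and 0.731 FPKM for the other lincRNA rows tested. Within a library group the median lincRNA stood at 7.71% of its partner's FPKM at 0 h, and at 5.54%, 5.94% and 6.30% after 4, 12 and 36 h. In the parental cells it stood at 2.97% in LINC00520 cells and 3.68% in untransduced cells, but the members were selected on their level in the time course alone. The members together took 0.733% of fragments at 0 h, 0.572% and 0.427% at 4 h, 0.596% at 12 h, and 0.513% and 0.470% at 36 h; they took 0.287% and 0.286% in the LINC00520 libraries and 0.314% to 0.319% in the untransduced ones. The largest share among them was that of linc-MKLN1-BP in each time-course library (3.70% to 8.88% of member fragments) and that of linc-ZNF34-BP in each parental library (11.3% to 12.3%).

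The order of lincRNA below partner was common but not general. In FPKM the lincRNA lay below its partner in all 6 time-course libraries in 350 of 425 pairs and above it in all 6 in 38, and it lay above in all 11 libraries of both experiments in 32. The 5 members with the highest mean FPKM were those beside KRT84, DENND4B, TSNAX, FAM72A and HSPA8. Each of these 5 intervals held at least 1 coding row, so the lincRNA's fragments may not have been told apart from coding ones. That of linc-HSPA8-BP held HSPA8 itself, at 2124 to 3600 CPM in the time course. linc-KRT84-BP is a caution: its interval held 7 coding rows, among them KRT5 and KRT6A at up to 5980 and 5051 CPM (not scaled for length), while the hair keratin KRT84 itself had 1 fragment at 0 h and none later. linc-FAM72A-BP shares its interval with FAM72A. The lincRNA had 19.6 FPKM at 0 h, 21.9 and 26.8 at 4 h, 39.5 at 12 h, and 27.6 and 17.5 at 36 h, whereas FAM72A had 1.07 to 3.61 FPKM. In the parental cells the order was the other way: linc-FAM72A-BP had 4.62 and 4.90 FPKM in LINC00520 cells and 3.99 to 6.01 FPKM in untransduced cells, below FAM72A at 8.93 and 8.78 FPKM and at 6.15 to 6.78 FPKM.

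**Figure D1:**
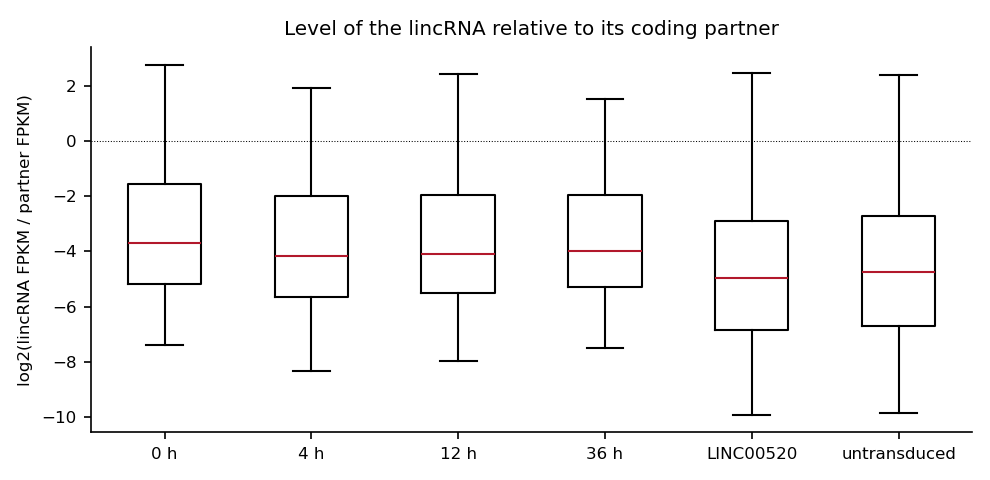
Level of each lincRNA relative to its coding partner, as log2 of the ratio of their group mean FPKM (y axis), for the time points of MCF10A-Src cells and for LINC00520 and untransduced parental cells (x axis). Boxes span the quartiles with the median in red, and whiskers run from the 5th to the 95th percentile over 409 to 421 pairs with both values above 0. All 6 medians lie below the dotted line of equal level, and the 2 medians in parental cells lie lower than the 4 of the time course.

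Between 36 h and 4 h, the contrast with replicates on both sides, 123 of 433 members passed edgeR's quasi-likelihood test at an adjusted p under 0.05. This is 28.4% of members, below the 37.4% of all 17799 rows tested. Of these members 91 rose and 32 fell, while among partners 81 rose and 82 fell of 399 tested, and among all rows 18% rose and 19.5% fell. Of the other lincRNA rows tested 20.5% rose and 11.8% fell, against 21.0% and 7.39% of members. The excess of rises was thus not particular to the members. Whether their share of falls differs from that of other lincRNAs was not tested. The median log2 change was 0.20 over members, 0.02 over partners, 0.10 over other lincRNAs and -0.05 over all rows. Members whose interval held no coding row gave 23 rises and 8 falls of 98. With scaling by library totals alone the split was 53 rises and 47 falls, as the medians of all rows moved with that scaling: the median log2 change was then -0.04 over members and -0.29 over all rows. The authors' deposited table gave 40 of 363 members a q-value under 0.05 in this contrast, beside 28.1% of all rows the authors tested.

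Members were measured with less precision than their partners: the median standard error of a log2 change was 0.32 for members and 0.19 for partners.

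**Figure D2:**
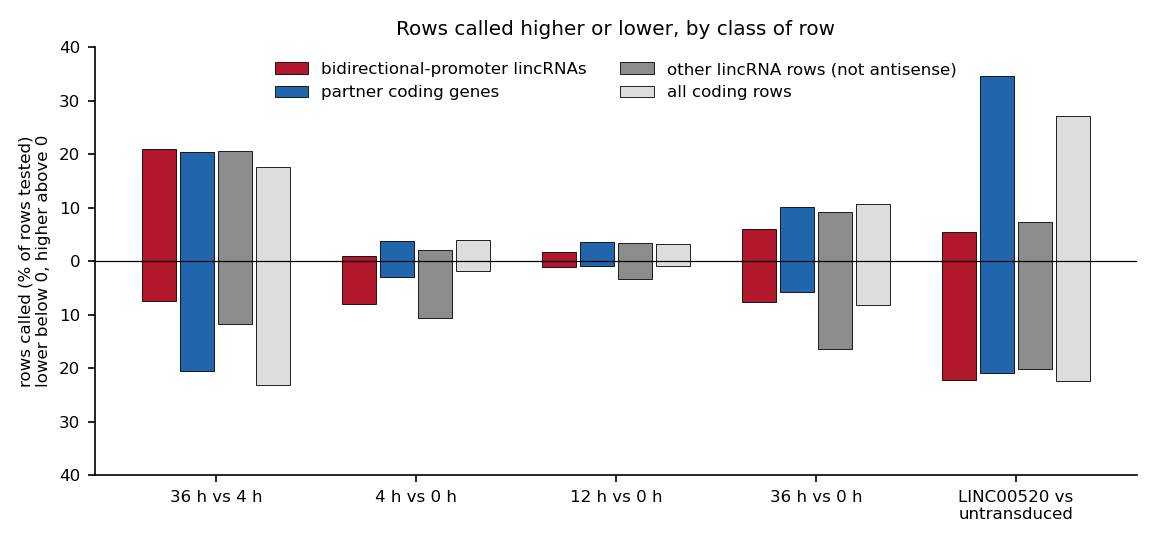
Percentage of rows called higher (above 0) or lower (below 0) in each of the 5 comparisons, for bidirectional-promoter lincRNAs, their partner coding genes, other lincRNA rows and all coding rows. At 36 h against 4 h the lincRNAs have 21.0% higher and 7.39% lower, and for LINC00520 against untransduced cells 5.40% higher and 22.2% lower.

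The member with the largest rise was linc-SOCS3-BP. Its neighbour SOCS3 encodes an inhibitor of cytokine signalling that is itself a known target of STAT3. linc-SOCS3-BP (chr17:76356511-76370690) had 0.0681 CPM at 0 h, which is 4 fragments, then 0.668 and 1.03 CPM at 4 h, 9.18 at 12 h, and 16.8 and 17.4 at 36 h. It was higher at each later time, and the libraries of 36 h and 4 h did not overlap (log2 4.31 ± 0.30 SE, 19.8-fold, edgeR adjusted p = 3.49e-05). SOCS3 had 13.9 CPM at 0 h, 220 and 298 at 4 h, 449 at 12 h, and 422 and 396 at 36 h. Most of its rise thus stood at 4 h already, with a log2 change of 4.22 ± 0.29 at 4 h against 0 h and 0.66 ± 0.19 at 36 h against 4 h (edgeR adjusted p = 0.000401 and 0.0250). Against 0 h the lincRNA rose by 3.57 ± 0.56 at 4 h and by 6.98 ± 0.51 at 12 h on the log2 scale (edgeR adjusted p = 0.0106 and 0.000305). The pair lies in separate intervals and no coding row lies in that of the lincRNA. In parental cells linc-SOCS3-BP had 0 fragments in both LINC00520 libraries and at most 0.220 CPM in untransduced cells, and was not tested there.

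Next came 2 pairs in which lincRNA and partner both rose, each within a shared interval. KLF9 encodes a Krüppel-like transcription factor induced by glucocorticoid and thyroid hormones. linc-KLF9-BP had 4.31 CPM at 0 h, 1.59 and 3.06 at 4 h, 15.3 at 12 h, and 29.3 and 21.8 at 36 h, while KLF9 had 10.6, then 3.13 and 3.75, then 34.9, and then 92.8 and 107 CPM. Both were lowest at 4 h and highest at 36 h with no overlap between those times. The log2 changes at 36 h against 4 h were 3.45 ± 0.33 for the lincRNA and 4.85 ± 0.21 for KLF9 (edgeR adjusted p = 0.000166 and 4.32e-06). JHDM1D encodes a histone lysine demethylase. linc-JHDM1D-BP had 0.545 CPM at 0 h, 1.23 and 1.21 at 4 h, 3.84 at 12 h, and 12.3 and 12.4 at 36 h, and JHDM1D had 32.1, then 65.2 and 73.0, then 185, and then 514 and 573 CPM. Both rose by 36 h against 4 h, by 3.34 ± 0.27 and 2.97 ± 0.17 on the log2 scale (edgeR adjusted p = 7.82e-05 and 1.53e-05).

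The other 3 largest rises exceeded what the partner did. linc-FMNL1-BP, beside a formin that nucleates actin filaments, had 39.3 and 39.5 CPM at 36 h against 4.37 and 3.66 CPM at 4 h (log2 3.30 ± 0.22, edgeR adjusted p = 2.79e-05), with 6.27 CPM at 0 h and 5.61 at 12 h. FMNL1 itself had 37.5 and 36.1 CPM at 36 h against 14.9 and 8.35 CPM at 4 h (log2 1.67 ± 0.27, edgeR adjusted p = 0.00231). Per length, linc-FMNL1-BP had 14.6 and 15.3 FPKM at 36 h, above FMNL1 at 13.6 and 12.8 FPKM, and 1.15 and 1.78 FPKM at 4 h, below FMNL1 at 4.40 and 2.72 FPKM. This pair shares a locus interval.

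linc-MANEA-BP and linc-MOB3B-BP were lowest at 4 h and highest at 36 h, beside partners that passed no test in these contrasts. linc-MANEA-BP lies beside the gene of a Golgi mannosidase that trims N-glycans. It had 9.66 CPM at 0 h, 2.00 and 2.37 at 4 h, 4.09 at 12 h, and 16.8 and 18.3 at 36 h. It fell by 2.14 ± 0.27 on the log2 scale at 4 h against 0 h and rose by 3.00 ± 0.24 at 36 h against 4 h (edgeR adjusted p = 0.00461 and 7.63e-05; the contrasts share the 4 h libraries). MANEA had 19.2 to 27.2 CPM over the 6 libraries (log2 -0.31 and 0.33). linc-MOB3B-BP, beside a member of the MOB family of kinase regulators, had 20.2 CPM at 0 h, 5.04 and 3.83 at 4 h, 13.4 at 12 h, and 38.0 and 32.2 at 36 h. Its log2 changes were -2.19 ± 0.25 and 2.99 ± 0.23 (edgeR adjusted p = 0.00355 and 6.09e-05), against 0.29 and 0.23 for its partner, listed under the older symbol MOBKL2B. No coding row lies in the interval of linc-MOB3B-BP, whereas linc-MANEA-BP shares its interval with MANEA.

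**Figure D3:**
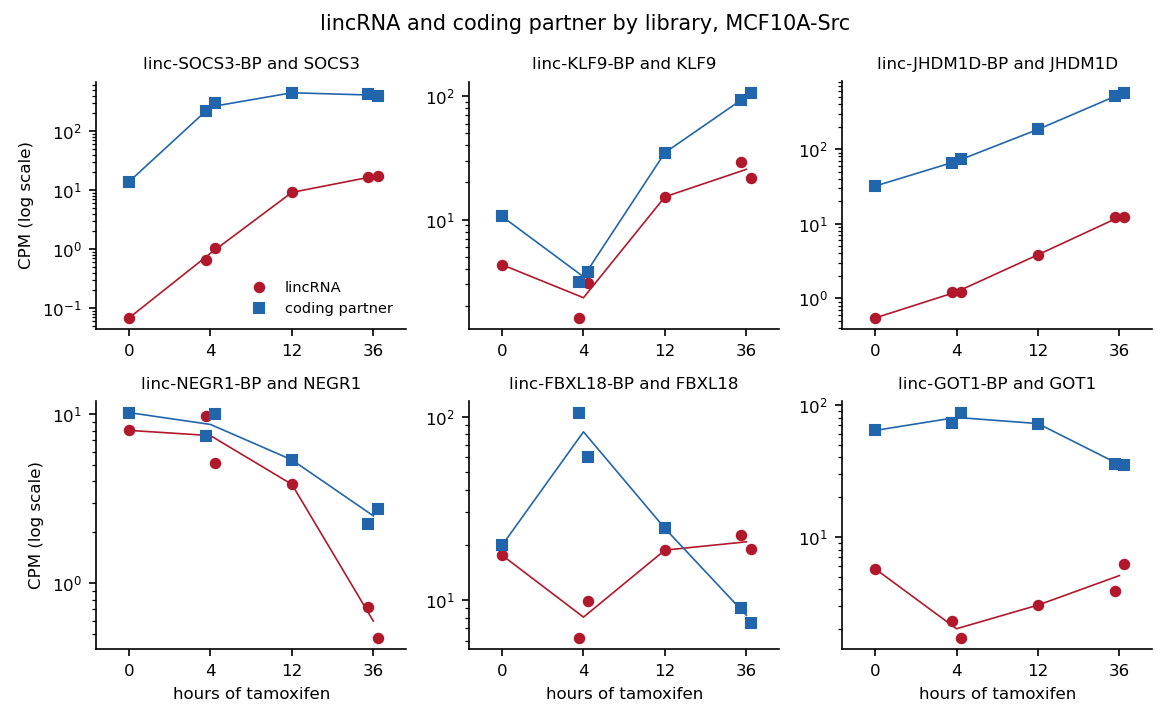
CPM on a log axis (y) against hours of tamoxifen (x, evenly spaced) for 6 lincRNAs (red circles) and their coding partners (blue squares) in MCF10A-Src cells; each point is a library and lines join the group means; CPM is not scaled for length, so heights are compared within a row only. linc-SOCS3-BP rises through 36 h whereas SOCS3 is near its highest level from 4 h on, the KLF9 and JHDM1D pairs rise together, the NEGR1 pair falls together, and at 36 h against 4 h the FBXL18 and GOT1 pairs move in opposite directions.

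Among the falls at 36 h against 4 h, the largest was that of linc-NEGR1-BP, beside a cell adhesion gene of the IgLON family. It had 0.718 and 0.475 CPM at 36 h against 9.82 and 5.12 CPM at 4 h (log2 -3.56 ± 0.44, edgeR adjusted p = 0.000641), with 8.02 CPM at 0 h and 3.84 at 12 h. NEGR1 fell too, to 2.25 and 2.75 CPM at 36 h, against 7.40 and 9.99 CPM at 4 h (log2 -1.82 ± 0.28, edgeR adjusted p = 0.00175). The pair shares an interval, and in neither row did the libraries of the 2 times overlap.

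linc-SCAND3-BP showed a pulse that its partner did not. It had 0.852 CPM at 0 h, 6.17 and 10.5 at 4 h, 2.25 at 12 h, and 2.25 and 2.47 at 36 h. It rose by 3.28 ± 0.45 at 4 h against 0 h and fell by 1.83 on the log2 scale (SE 0.34) at 36 h against 4 h (edgeR adjusted p = 0.00612 and 0.00402). SCAND3 had 8.03 to 14.6 CPM throughout and passed neither test, and no coding row lies in the lincRNA's interval. Of the remaining named falls, linc-RFPL2-BP (log2 -2.22) and linc-S100A5-BP (log2 -1.66) had partners with at most 2 fragments at 0 h and too few to test. Both intervals held other coding rows, whose fragments may not have been told apart from the lincRNA's. For linc-S100A5-BP these were S100A3 (5.86 to 9.21 CPM) and S100A4 (3.05 to 5.60 CPM). For linc-RFPL2-BP they were RFPL3 and SLC5A4, at up to 0.0957 and 0.153 CPM. linc-STIP1-BP fell by 1.69 at an edgeR adjusted p of 0.0496, beside STIP1, a co-chaperone of HSP70 and HSP90 (log2 -0.61, edgeR adjusted p = 0.0470); its call was lost without the second 36 h library (-1.17) or the second 4 h library (-1.52), with the FPKM filter and with DESeq2 (adjusted p = 0.162), and its value was -3.59 without the first 36 h library.

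Against 0 h, which has 1 library, fewer members passed the test. At 4 h 4 rose and 35 fell, which is 9.01% of members beside 6.55% of all rows (3.27% higher and 3.28% lower). The median log2 change was -0.35 over members, -0.53 over other lincRNAs, 0.07 over partners and 0.11 over coding rows. Changes lay below 0 in 312 of 433 members and in 898 of 1216 other lincRNA rows. The deepest library was that of 0 h, and the part of depth in this lower level was not tested; the count of calls was 151 without the first 4 h library, where 5440 of all rows were called. At 12 h 7 rose and 5 fell (2.77% beside 3.95% of all rows, 2.83% higher and 1.12% lower). The median at 12 h was -0.36 with 308 of 433 members below 0, and without the first or the second 4 h library, which enter through the spread, the split was 19 rises and 63 falls, or 19 and 57. At 36 h 26 rose and 33 fell (13.6% beside 18.1% of all rows, 9.41% higher and 8.7% lower). With a single library at 0 h and at 12 h, these tests take the spread from the 4 h and 36 h pairs. The authors' deposited table gave q-values under 0.05 to 17 of 351 members at 4 h, 10 of 360 at 12 h and 25 of 377 at 36 h. Beside these stood 8.97%, 7.01% and 16.3% of all rows the authors tested. At 4 h the share of members was thus below that of all rows, the other way from the calls made here. Not all of the authors' members were called here.

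The members that changed with the smallest p against 0 h included a cytokine neighbour. linc-IL7-BP, beside the lymphoid growth factor IL7, had 7.27 CPM at 0 h, 28.9 and 39.8 at 4 h, 84.3 at 12 h, and 28.5 and 22.9 at 36 h. It rose by 2.24 ± 0.29 at 4 h and 3.53 ± 0.33 at 12 h on the log2 scale against 0 h (edgeR adjusted p = 0.00536 and 0.000852). IL7 had 1.64 to 5.60 CPM over the same libraries and passed neither test (log2 0.31 and 1.37). linc-IL7-BP shares a locus interval with IL7, and linc-CNOT6-BP shares one with CNOT6. linc-CNOT6-BP, beside a deadenylase subunit of the CCR4-NOT complex, stood at 33.5 CPM at 12 h against 3.75 CPM at 0 h (log2 3.16 ± 0.41, edgeR adjusted p = 0.00359), while CNOT6 had 148 and 188 CPM (log2 -0.35) and did not pass the test.

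Falls against 0 h were led by linc-SDPR-BP and by linc-FGF1-BP. SDPR encodes a protein of caveolae. linc-SDPR-BP had 126 CPM at 0 h, 25.2 and 15.8 at 4 h, 45.7 at 12 h, and 45.8 and 40.4 at 36 h, with 0 h above all others (log2 -2.62 ± 0.27 at 4 h, edgeR adjusted p = 0.00201). In FPKM, which depends on the transcript lengths Cuffdiff assigns, it had 15.3 FPKM at 0 h, 9.54 and 9.05 at 4 h and 19.3 at 12 h, so that 12 h stood above 0 h; with limma on log2(FPKM + 1) the call at 4 h was lost (-0.67, adjusted p = 0.158) and the direction at 12 h turned (0.31). SDPR had 22.0 to 44.1 CPM and passed neither the 4 h nor the 12 h test. linc-FGF1-BP, beside the gene of a fibroblast growth factor, had 19.6 CPM at 0 h, 12.9 and 10.7 at 4 h, 1.35 at 12 h, and 51.4 and 57.2 at 36 h. It was lowest at 12 h (log2 -3.86 ± 0.32 against 0 h, edgeR adjusted p = 0.000519) and highest at 36 h. FGF1 had 3.61 CPM at 0 h, 0.719 and 0.646 at 4 h, 1.00 at 12 h, and 3.64 and 2.47 at 36 h. Per length the lincRNA lay above FGF1 in every library of the time course except that of 12 h, where it had 0.215 FPKM and FGF1 had 0.258 FPKM. linc-ATPBD4-BP and linc-RIOK2-BP, whose neighbours act in diphthamide synthesis and in ribosome assembly, were at 36.3 and 46.5 CPM at 0 h, and at 3.75 to 20.1 CPM in the later libraries; ATPBD4 and RIOK2 passed no test at 4 h or 12 h. Each of the SDPR, FGF1, ATPBD4 and RIOK2 pairs shares a locus interval.

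In LINC00520 cells against untransduced cells, an experiment the rule did not use, 315 members had enough fragments to test. Of these 17 rose and 70 fell. This is 27.6% of members tested, beside 44.2% of 16057 rows, of which 22.6% rose and 21.6% fell. Of 397 partners tested 137 rose and 83 fell. Of 816 other lincRNA rows tested 60 rose and 165 fell (7.35% and 20.2%), so the excess of falls was not particular to the members. The median log2 change was -0.15 over members, 0.04 over partners, -0.10 over other lincRNAs and 0.00 over all rows. Among members whose interval held no coding row 4 rose and 19 fell of 69. The count was 44 with DESeq2 and 57 with limma, and the authors' deposited table gave 8 of 234 members a q-value under 0.05, beside 12.9% of all rows the authors tested.

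The changes were small beside those of the time course. The largest fall was that of linc-LGALSL-BP, whose name matched no coding row, with 0.205 and 0.221 CPM in LINC00520 cells against 0.853, 0.788 and 0.915 CPM in untransduced cells (log2 -1.97 ± 0.39, edgeR adjusted p = 0.000182). linc-FGF1-BP had 3.03 and 2.61 CPM in LINC00520 cells against 5.80, 7.42 and 6.92 CPM in untransduced cells (log2 -1.23 ± 0.14, edgeR adjusted p = 1.11e-07). FGF1 fell with it, to 0.123 and 0.177 CPM against 1.13, 0.854 and 1.05 CPM (log2 -2.73 ± 0.42, edgeR adjusted p = 7.44e-06). Neither row's groups overlapped.

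Other falls were shared with the partner as well. linc-FMNL1-BP had 2.58 and 2.52 CPM in LINC00520 cells against 5.75, 5.19 and 4.83 CPM in untransduced cells, a log2 change of -1.05 ± 0.14, and FMNL1 fell by 0.70 (edgeR adjusted p = 1.21e-06 and 4.96e-09). linc-C1orf204-BP fell by 1.08 and its partner row, listed for C1orf204 and VSIG8 together, by 0.92 (edgeR adjusted p = 3.04e-06 and 0.00149). Both of these pairs share a locus interval.

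The largest rise was that of linc-KIF20B-BP, beside a kinesin needed for the end of cell division. It had 1.60 and 1.55 CPM in LINC00520 cells against 0.660, 0.887 and 0.958 CPM in untransduced cells (log2 0.95 ± 0.24, edgeR adjusted p = 0.00240), and KIF20B rose by 0.58 ± 0.03 (edgeR adjusted p = 4.23e-13). linc-MAP3K9-BP, beside a kinase upstream of JNK, had 8.12 and 9.21 CPM in LINC00520 cells against 6.16, 5.06 and 5.49 CPM in untransduced cells, and rose by 0.62 ± 0.11 with MAP3K9 at 0.31 ± 0.06 (edgeR adjusted p = 3.47e-05 and 0.000104). linc-FHDC1-BP also rose by 0.62, at an edgeR adjusted p of 0.0374, and this call was lost with DESeq2 and limma and on leaving out either LINC00520 library or the second untransduced one. Both the MAP3K9 and the FHDC1 pair share a locus interval.

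**Figure D4:**
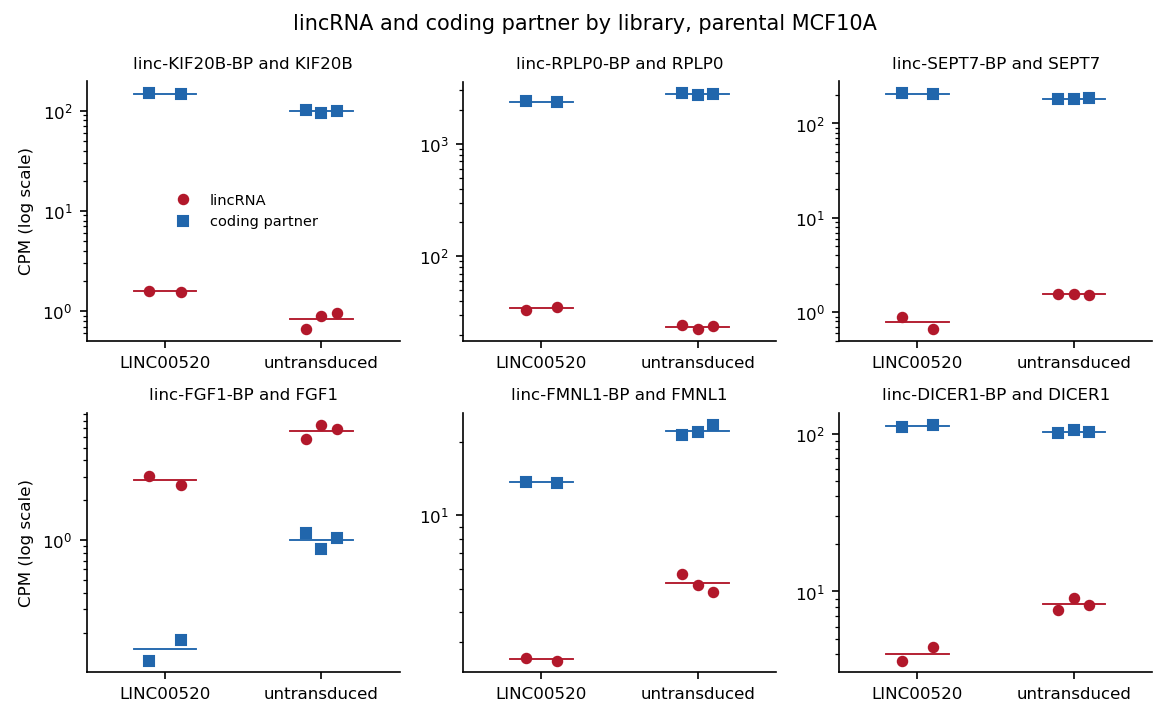
CPM on a log axis (y) for 6 lincRNAs (red circles) and their coding partners (blue squares) in LINC00520 and untransduced parental MCF10A cells (x); each point is a library and horizontal lines are group means; CPM is not scaled for length. The KIF20B pair is higher and the FGF1 and FMNL1 pairs lower in LINC00520 cells, whereas in the RPLP0, SEPT7 and DICER1 pairs lincRNA and partner differ in opposite directions.

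Pairs were set side by side to ask how often lincRNA and partner moved the same way. At 36 h against 4 h the signs matched in 231 of 401 pairs tested on both sides, which is 57.6%, and the log2 changes had a Pearson r of 0.40 and a Spearman rho of 0.33 across pairs. In 53 pairs both rows were called: 30 rose together, 10 fell together and 13 went opposite ways. The share was 57.8% for pairs in a shared interval (r = 0.48) and 57.3% for pairs in separate intervals (r = 0.26). Under the same count the antisense lincRNA rows matched their host in 70.5% of 3558 pairs (r = 0.68). Other lincRNAs matched the gene in their name in 58.3% of 757 (r = 0.27). The classes differ in how pairs lie: 0 antisense pairs were in separate intervals, against 714 of the 757 other lincRNA pairs (r = 0.26 in those 714). Fragments of rows in a shared interval may not have been told apart, so the classes are not compared like for like. Pairs and classes share libraries, and pairs differ in depth, so these shares are descriptions. No share was computed for lincRNAs set beside unrelated genes.

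The signs matched in 53.9% of pairs at 4 h, 61.3% at 12 h and 57.4% at 36 h against 0 h, and these 3 comparisons share the 0 h library. In LINC00520 cells against untransduced cells they matched in 159 of 289 pairs, which is 55.0% (r = 0.28, rho = 0.16). There both rows were called in 47 pairs, of which 4 rose together, 23 fell together and 20 went opposite ways; in 18 of those 20 the lincRNA fell and the coding gene rose. Of the 23 such pairs in separate intervals, 14 were opposite, against 6 of 24 in shared intervals. The same-sign share was 47.0% of 115 pairs in separate intervals and 60.3% of 174 in shared ones. Other lincRNAs showed a like skew: of 75 pairs with both rows called, 32 were opposite. In 29 of those 32 the lincRNA fell and the coding gene rose. Among antisense rows 41 of 523 pairs with both rows called were opposite, 31 of them that way, and 0 of the 523 were in separate intervals. Calls counted without regard to pairs lean the same way: 70 members fell and 17 rose, and 137 partners rose and 83 fell. The skew alone therefore does not show a lincRNA moving against its partner, and whether pairs depart from those totals was not tested.

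**Figure D5:**
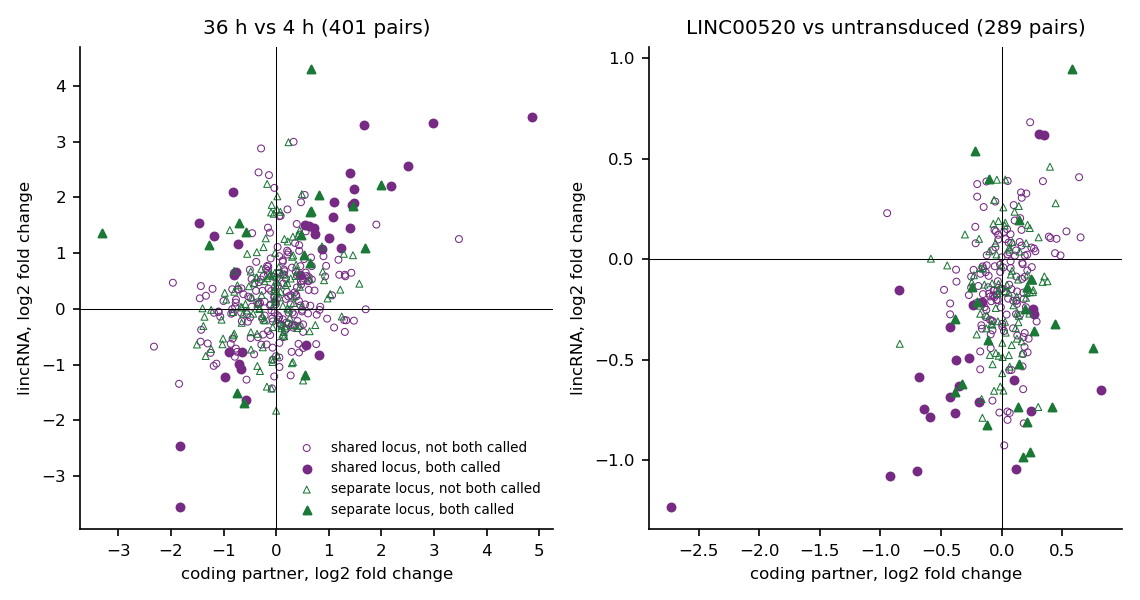
Log2 fold change of the lincRNA (y) against that of its coding partner (x), 1 point a pair, at 36 h against 4 h (401 pairs) and in LINC00520 against untransduced cells (289 pairs). Circles are pairs in a shared locus interval and triangles pairs in separate intervals, filled where both rows were called; in the right panel 18 filled points lie at lower right, where the lincRNA fell and the coding gene rose.

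The pairs called in opposite directions included genes of translation, microRNA maturation and metabolism. RPLP0 encodes a protein of the ribosomal stalk. linc-RPLP0-BP had 33.2 and 35.4 CPM in LINC00520 cells against 24.4, 22.5 and 24.0 CPM in untransduced cells (log2 0.54 ± 0.06, edgeR adjusted p = 1.78e-08), and RPLP0 fell by 0.22 ± 0.03, with 2388 and 2377 CPM against 2821, 2738 and 2769 CPM (edgeR adjusted p = 2.85e-07). The interval of linc-RPLP0-BP also holds PXN, at 85.6 to 190 CPM in the time course.

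DICER1, the endonuclease that matures microRNAs, rose by 0.12 ± 0.03 in LINC00520 cells while linc-DICER1-BP fell by 1.04, with 3.65 and 4.43 CPM against 7.67, 9.07 and 8.23 CPM in untransduced cells (edgeR adjusted p = 0.00550 and 1.00e-07). linc-SEPT7-BP, whose interval holds no coding row, had 0.902 and 0.664 CPM in LINC00520 cells against 1.57, 1.58 and 1.52 CPM in untransduced cells (log2 -0.98 ± 0.25), beside the cytoskeletal septin SEPT7 at 0.18 ± 0.03 (edgeR adjusted p = 0.00218 and 2.31e-05). The nucleoporin pair was closer, at -0.25 for linc-NUP50-BP and 0.26 for NUP50 (edgeR adjusted p = 0.00568 and 5.65e-07), and the call of the lincRNA was lost with DESeq2, with limma and without the first LINC00520 library. Both the DICER1 and the NUP50 pair share a locus interval, so their fragments may not have been told apart.

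In the time course the widest gap was at FBXL18, which encodes an F-box protein. linc-FBXL18-BP, whose interval holds no coding row, had 22.6 and 18.9 CPM at 36 h against 6.22 and 9.91 CPM at 4 h (log2 1.36 ± 0.26, edgeR adjusted p = 0.00468). FBXL18 fell to 9.00 and 7.50 CPM at 36 h, against 105 and 60.1 CPM at 4 h (log2 -3.31 ± 0.29, edgeR adjusted p = 0.000117), and stood at 19.8 CPM at 0 h. GOT1, the cytosolic aspartate aminotransferase, had 35.5 and 35.0 CPM at 36 h against 73.2 and 87.3 CPM at 4 h (log2 -1.18 ± 0.17, edgeR adjusted p = 0.00128). linc-GOT1-BP had 3.92 and 6.27 CPM at 36 h against 2.31 and 1.72 CPM at 4 h (log2 1.31 ± 0.34, edgeR adjusted p = 0.0167), and its call was lost without the second 36 h library, at 0.96. It shares a locus interval with GOT1, as linc-ELL2-BP does with ELL2. linc-ELL2-BP fell by 1.70 at 36 h against 0 h (edgeR adjusted p = 0.0413), with 0.862 and 0.475 CPM at 36 h against 2.32 CPM at 0 h; this call was lost with DESeq2, with limma and without either 36 h library. The elongation factor gene ELL2 rose over the same interval, with 258 and 347 CPM at 36 h against 124 CPM at 0 h (log2 1.29 ± 0.25, edgeR adjusted p = 0.00977).

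The 2 experiments share no libraries, so their calls were set side by side. Of 60 members that rose at 36 h against 4 h and were tested in the parental cells, 24 (40%) fell in LINC00520 cells and 0 rose. These 24 were 34.3% of the 70 members that fell there. Over all rows tested in both experiments, 826 of the 2679 that rose at 36 h (30.8%) fell in LINC00520 cells and 504 (18.8%) rose; over lincRNA rows other than members, 197 of 653 (30.2%) fell and 56 (8.58%) rose. Whether the members differ from these was not tested. Of 228 members with no call at 36 h against 4 h, 41 (18.0%) fell and 15 rose in LINC00520 cells, and of 27 that fell at 36 h, 5 fell and 2 rose. linc-FMNL1-BP was in the first set, with log2 changes of 3.30 and -1.05.

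Factors that act on RNA made upstream of promoters were taken as a list of 54 genes of the nuclear exosome, its adaptors, the cleavage and Integrator complexes and U1 snRNP, of which 52 were tested. At 36 h against 4 h 4 of them rose and 15 fell, which is 36.5% called beside 37.4% of all rows (median log2 -0.33, beside -0.05). In LINC00520 cells 21 rose and 9 fell, which is 57.7% beside 44.2% of all rows (median 0.08, beside 0.00). The falls with the smallest p at 36 h were those of INTS5 (log2 -1.49 ± 0.24) and INTS9 (-1.23 ± 0.24), subunits of Integrator, CLP1 (-1.23 ± 0.21), a cleavage factor, SRRT (-0.91 ± 0.18), which links capped RNA to the exosome, and the exosome subunits EXOSC6 (-1.11 ± 0.22) and EXOSC2 (-0.94 ± 0.20), with edgeR adjusted p of 0.00204 to 0.00707. The 4 rises were those of MPHOSPH6 (log2 0.81 ± 0.18), ZFC3H1 (0.66 ± 0.16), INTS2 (0.63 ± 0.18) and PCF11 (0.60 ± 0.16). Of the other EXOSC genes, EXOSC5 fell (-0.66 ± 0.22). EXOSC1, EXOSC3, EXOSC4, EXOSC7, EXOSC8, EXOSC9 and EXOSC10 were not called, nor was DIS3. INTS5 had 13.6 and 10.7 CPM at 36 h against 40.5 and 28.4 CPM at 4 h. Against 0 h 1 rose at each of 4 h, 12 h and 36 h, and 0, 0 and 1 fell. Their part in the members' changes was not tested. In these bulk libraries fewer cells of a kind and less RNA per cell cannot be told apart.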

How the data were processed

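PolyA-selected RNA was sequenced from TruSeq libraries, per the labels' protocols, and CASAVA 1.4, TopHat, Cuffdiff and the build hg19 are named in the submitters' processing notes; the annotation and the strand setting are not given in the sources used here. The authors' deposited Cuffdiff tables list an estimated count (fragments before scaling) for every gene in every library. The same deposited tables hold FPKM, scaled for length and library by the authors. The authors' deposited comparison tables hold a p-value and a q-value per gene.

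Libraries were matched to labels by condition name. The file numbers replicates from 0 and the labels from 1, and file replicate k was taken as label replicate k + 1. A further 7 libraries in the parental table matched no label and were not used. Whether replicates were grown separately is not stated in the labels, and every p-value here rests on the variation among these libraries, which may be technical. The members, the lists and the rule for named genes were chosen with earlier results of these data known. The rule took the largest called changes with groups that do not overlap (36 h against 4 h, 6 each way; LINC00520, 4 each way), 4 each way by smallest p at 4 h and 12 h against 0 h, 8 pairs called in opposite directions, the 5 highest members and the turnover genes with the smallest p; some rows the rule takes are not reported here. The promoter word search, the neighbour count in GENCODE, the split by coding rows in an interval, the side-by-side calls of both experiments and the promoters shown were chosen after values were seen; a word for NRF1 was searched too and is not reported here, and promoter words were first counted in a longer window running past the start, before the window given here was chosen.

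Estimated counts were rounded and rows with 20 or more fragments in at least 2 libraries of an experiment and status OK in all were fitted with edgeR 4.0.16 (TMM, glmQLFit, glmQLFTest, R 4.3.3), 1 coefficient per group, with Benjamini-Hochberg adjustment over all rows tested and a 2-sided threshold of 0.05. The common coefficient of variation was 0.168 for the MCF10A-Src libraries (2 residual degrees of freedom) and 0.0251 for the parental ones (3). Standard errors are the log2 change over the square root of the F statistic. Alternatives were DESeq2 1.42.0, limma 3.58.1 on log2(FPKM + 1), other scalings and filters, a replicate block and leaving out each library. The fit was also tested on simulated counts. Promoter coordinates are RefSeq's on GRCh38.p14 and gene intervals the files' on hg19; none were converted.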

Additional observations from a re-analysis of the deposited data

How the results depend on the processing

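With the counts of members called at 123 (36 h against 4 h), 39 (4 h against 0 h), 12 (12 h), 59 (36 h against 0 h) and 87 (LINC00520), the counts that moved over 1.5 times were 77 of 266 and 55 of 132 tested with the FPKM filter (36 h against 4 h and LINC00520, with 433 and 315 tested otherwise), 8, 39 and 57 with limma (4 h and 36 h against 0 h, and LINC00520), 44 with DESeq2 (LINC00520), 6 with library totals (12 h), and 77, 41 (14 higher and 27 lower) and 94 with no filter on fragments (4 h, 12 h and 36 h against 0 h). At 36 h against 0 h the split was 18 higher and 66 lower with library totals, in place of 26 and 33. Leaving out each library gave 67 to 176 calls for 36 h against 4 h (fewest without the first 36 h library), 46 to 151 at 4 h against 0 h and 16 to 82 at 12 h (most without the first 4 h library), 35 to 143 at 36 h against 0 h, and 57 to 88 for LINC00520 (fewest without its first library). The same-sign share of pairs at 4 h against 0 h was 62.1% with library totals, 47.3% without pairs in a shared interval, 45.3% for members whose interval holds no coding row, and 51.9% to 59.1% on leaving out a library. At 36 h against 0 h it was 70.6% with library totals and 65.3% for members whose interval holds no coding row, and for LINC00520 65.3% with the FPKM filter and 47.0% without pairs in a shared interval. On the CPM scale the median lincRNA stood at 9.42% of its partner over the time-course libraries, in place of 5.86% in FPKM. The one reversal among named members was linc-SDPR-BP at 12 h against 0 h, at 0.31 with limma, which also lost the 4 h calls beside SOCS3, SDPR, MANEA and ATPBD4; of 471 values of named members under alternatives, 441 kept their direction and call and 29 lost the call only. The cause was not tested. Replicate numbers do not pair the libraries (correlation of same-numbered deviations 0.105 over the 4 h and 36 h libraries), and with the replicate block the counts were 142 for 36 h against 4 h and 83 for LINC00520. Low fragment numbers limit what can be called: 118 members were too low to test in the parental cells.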
